A study of Mus musculus with 2 samples.

Results

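The regions described here are 17778 DNase I peaks that lie in introns and were called in 1 of 2 thymus libraries only, the library labelled replicate 1. Both libraries are called by their labels below. DNase-seq reads out where chromatin is open enough for the enzyme to cut, and a peak is a stretch with many cuts. The source of both was thymus of B6CASTF1/J mice, an F1 hybrid strain, male and 36 days old, for which the labels name no treatment. They form 1 group. The labels number the libraries as biological replicates 1 and 2, yet 1 donor identifier stands on both, and whether 1 or 2 animals were used is unclear.

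Members were chosen by the peak calls of both libraries. A member is a peak of the shorter deposited list of replicate 1 with its edge more than 1 kb from every annotated transcript start, with its midpoint inside a gene but in no exon. It overlaps no peak in either deposited list of replicate 2, not even by 1 bp. Members made up 20.8% of the 85367 peaks in that list (Wilson 95% interval 20.6 to 21.1) and 65.9% of its 26988 intronic peaks (65.3 to 66.4). Another 7601 intronic peaks overlapped the shorter list of replicate 2 and are called peaks in both libraries below, and 1609 overlapped its longer list alone. The same rule run the other way found 8213 intronic peaks only in replicate 2, or 48.1% of its 17080 (47.3 to 48.8). Because absence from replicate 2 is the rule, it is not a finding. With 1 library on each side no test between libraries was possible, and all intervals cover counting over peaks only, since the read depth is unknown.

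Open chromatin inside introns and away from transcript starts marks many enhancers, short stretches of DNA that bind transcription factors and act on genes nearby. Which of them are open differs widely between cell types. In thymus most cells are developing T cells, whose open introns lie in genes such as Tcf7 and Bcl11b and hold sites of the RUNX and ETS families. In the acinar cells of the pancreas, which make digestive enzymes, PTF1 (PTF1A with RBPJ or RBPJL), NR5A2 and GATA factors bind near the enzyme genes. A footprint is a short protected stretch inside a peak, where a bound protein can keep the enzyme from cutting.

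At the starts of T cell receptor and acinar enzyme genes the library labelled replicate 1 went against its tissue label. Of 22 T cell receptor and coreceptor genes, 5 had a promoter peak in replicate 1 and 21 in replicate 2. Of 29 acinar enzyme genes, 26 had one in replicate 1 and 2 in replicate 2. Of 18 T lineage transcription factor genes 17 had one in replicate 1 and 18 in replicate 2, so this list did not go against the label. All 16 housekeeping genes had one in both. In bulk tissue, fewer cells of a type and less open chromatin per cell cannot be told apart. What tissue or mixture gave this library was not tested, and with 1 library on each side library and tissue cannot be told apart. Every result below rests on this library and cannot be given without it.

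Sequences of single members show what the counts further down are made of. The set below holds the strongest member of at most 300 bp in Pnlip, the gene for pancreatic lipase, and in 5 of the 8 genes with most members. Capitals mark matches on either strand to 12 of the searched sequences, among them NR5A2 (TCAAGGTCA), RBPJ (TGGGAAA), the E-boxes CAGCTG and CACCTG, the GATA family sequence AGATAAG, the CTCF core, and the NFI palindrome TGGCNNNNNGCCA, which was added after the strongest members had been read. Letters are those of the GRCm38.p6 reference, plus strand, 5' to 3', and not of the CAST allele these mice also carry. The Samd4b member also lies in Pak4.
Pnlip (chr19:58666981-58667240): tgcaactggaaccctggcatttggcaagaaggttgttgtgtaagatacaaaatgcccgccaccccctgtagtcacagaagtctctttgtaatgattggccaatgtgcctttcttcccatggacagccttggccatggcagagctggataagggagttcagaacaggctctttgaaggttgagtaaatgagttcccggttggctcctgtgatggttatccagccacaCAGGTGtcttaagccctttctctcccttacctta
Gm20388 (chr8:121865341-121865540): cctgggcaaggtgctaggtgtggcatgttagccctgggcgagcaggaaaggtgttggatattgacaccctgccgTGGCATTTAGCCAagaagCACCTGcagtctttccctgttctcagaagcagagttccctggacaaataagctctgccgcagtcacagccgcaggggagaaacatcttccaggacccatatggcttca
Samd4b (chr7:28570261-28570460): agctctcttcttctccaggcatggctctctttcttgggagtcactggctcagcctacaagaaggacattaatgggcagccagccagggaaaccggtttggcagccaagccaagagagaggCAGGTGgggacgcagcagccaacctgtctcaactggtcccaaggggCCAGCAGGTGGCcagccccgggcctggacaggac
Prdm16 (chr4:154497061-154497260): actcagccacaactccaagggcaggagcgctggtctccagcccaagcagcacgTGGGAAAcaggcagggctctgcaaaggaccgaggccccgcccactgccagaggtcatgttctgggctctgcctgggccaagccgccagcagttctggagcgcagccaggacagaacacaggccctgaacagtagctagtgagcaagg
Tead1 (chr7:112884041-112884240): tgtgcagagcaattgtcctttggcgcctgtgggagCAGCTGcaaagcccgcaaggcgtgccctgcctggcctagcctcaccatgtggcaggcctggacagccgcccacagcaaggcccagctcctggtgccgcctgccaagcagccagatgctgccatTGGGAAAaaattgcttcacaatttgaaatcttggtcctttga
Mecom (chr3:30512541-30512720): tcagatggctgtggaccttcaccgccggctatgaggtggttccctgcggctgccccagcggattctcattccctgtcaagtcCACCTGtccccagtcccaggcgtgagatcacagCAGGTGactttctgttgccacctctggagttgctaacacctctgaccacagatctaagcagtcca

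The Pnlip member had a signal of 3.88 and 5 footprints, and its only marked match was a CACCTG E-box at bases 227 to 232. The Gm20388 member, with a signal of 8.12, held an NFI palindrome at bases 75 to 87 and an E-box at bases 93 to 98. In the Samd4b member, whose signal of 10.7 was the third highest of all members, the E-box at bases 171 to 176 is part of a CTCF match at bases 167 to 178. The Prdm16 member, with a signal of 11.4, had 1 match to the 12 marked sequences, to RBPJ. It also held a match to GGGCGGG (SP/KLF), which is searched below but not marked. Tead1 held an RBPJ and a CAGCTG match, and Mecom held a pair of CACCTG E-boxes. In Fgfr2, the gene with the next most members after Gm20388, the strongest member held no match to any of the 12.

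A further set shows the NFI palindrome, a dimer site of the nuclear factor I family. These are the 3 strongest other members of at most 300 bp in which the midpoint of the palindrome lay in a footprint.
Clmn (chr12:104824721-104824920): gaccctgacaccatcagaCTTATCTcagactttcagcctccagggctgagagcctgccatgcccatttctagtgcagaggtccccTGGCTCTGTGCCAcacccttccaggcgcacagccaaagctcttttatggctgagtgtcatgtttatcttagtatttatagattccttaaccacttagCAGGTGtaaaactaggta
Zyg11a (chr4:108196321-108196540): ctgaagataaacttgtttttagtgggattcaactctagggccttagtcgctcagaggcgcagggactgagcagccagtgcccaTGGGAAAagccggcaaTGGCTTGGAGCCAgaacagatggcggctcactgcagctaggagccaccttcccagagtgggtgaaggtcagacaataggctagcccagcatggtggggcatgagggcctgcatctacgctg
Tbc1d16 (chr11:119216261-119216440): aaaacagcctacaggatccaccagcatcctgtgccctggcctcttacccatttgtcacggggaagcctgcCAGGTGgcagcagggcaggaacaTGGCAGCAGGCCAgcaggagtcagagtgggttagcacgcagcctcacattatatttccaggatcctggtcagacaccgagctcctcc

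The palindrome starts at base 86 in the Clmn member (signal 8.62), at base 100 in the Zyg11a member (7.93) and at base 94 in the Tbc1d16 member (7.89). The Zyg11a member also holds an RBPJ match at bases 84 to 90, upstream of the palindrome on the printed strand. Clmn and Tbc1d16 members hold a CACCTG E-box each, and Clmn a GATA match.

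Members were weaker than peaks in both libraries and not narrower. Their median width was 200 bp (middle 50% from 134 to 260 bp), against 187 bp for peaks only in replicate 2 and 180 bp for peaks in both, and their median signal 0.909 (0.588 to 1.50, extremes 0.118 and 13.2), at percentile 35.3 of their own list. Intronic peaks in both libraries had a median signal of 1.61 in replicate 1, at percentile 59.3, and peaks only in replicate 2 lay at percentile 31.9 of theirs. Nearly all members, 97.1%, overlapped the longer list of their own library too. In the FDR table of replicate 1 the lowest value inside a member had a median of 4.59e-07 and was at most 0.00099. Because 643 members overlapped another member, merging left 17353 separate sites that covered 3.75 Mb.

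The strongest member lay in the non-coding gene Gm12339 (chr11:75812021-75812200), with a signal of 13.2 and 6 footprints. The next were in Prdm16, in Samd4b and Pak4, in Arhgap26, in Hic2, in Rap1gap2 (10.3), in Nuak1 (9.92), in Rab3il1, in Utrn and in Disc1 (9.31). None of these 10 members lay in a gene of the acinar enzyme list. Rap1gap2 encodes an activator of the GTPase activity of Rap1, Nuak1 a kinase, and Utrn utrophin, a relative of dystrophin.

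Members, like the other intronic peaks, lay mostly outside repeats. The share lying over 50% in masked repeats was 4.51%, against 7.83% of peaks only in replicate 2, 7.55% of peaks in both and 23.7% of 248800 windows of 200 bp taken at even steps through the same introns. The median GC content of the central 200 bp was 50% in members, 52.5% in peaks only in replicate 2, 51.0% in peaks in both and 42.0% in the windows. On the X chromosome lay 1.47% of members (1.30 to 1.66) against 4.41% of the windows, and 1.23% of peaks only in replicate 2. The median distance to the nearest transcript start was 8651 bp.

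Members clustered along genes. Another member lay within 5 kb of 52.4% of them (51.7 to 53.2), while 20.2% of the peaks in both (19.3 to 21.1) had another of their own set that close. For peaks only in replicate 2, a smaller set, the share was 47.7% (46.7 to 48.8). Members also lay more often in the first intron of the longest transcript, 36.7% (35.9 to 37.4) against 26.8% of peaks in both (25.7 to 27.9) and 26.0% of windows. Peaks only in replicate 2 gave 34.0% (32.9 to 35.1).

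The 17778 members fell in 6521 genes, of which 3110 held 1 member and 308 held at least 10. Of 19252 protein-coding genes with intron beyond 1 kb of a transcript start, 5323 or 27.6% held a member, 9.91% held at least 3, and 16.0% held a peak only in replicate 2. The density was 1.84 members per 100 kb of such intron, against 0.852 peaks only in replicate 2. Of the 308 genes, 120 held no peak only in replicate 2. A gene can share a member with an overlapping gene: 16628 members had 1 host gene and 1150 had several.

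The ranking by number was led by very long gene models. Gm20388 (chr8:119910841-124345722) held 182 members, of which 60 had no other host, and also 114 peaks only in replicate 2 and 91 in both. Fgfr2, the gene of a fibroblast growth factor receptor, held 105 in a model that spans chr7:130162451-133123350, of which 33 had no other host. Gm37240 held 43 and Samd4b 41, with 20 and 11 of these in no other gene. The members of Gm20388 and Fgfr2 numbered 5.07 and 4.10 per 100 kb, against 1.84 over all genes.

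Below these came several transcription factor genes whose members were nearly all their own. Prdm16, a zinc finger factor known from brown fat, held 39 members, 2 peaks only in replicate 2 and 1 in both. Tead1, the DNA-binding partner of the Hippo pathway's YAP, held 34, 0 and 1. Mecom, another zinc finger factor, held 33, 0 and 1. Nfix, a member of the nuclear factor I family, held 28, 0 and 3, at 33.9 members per 100 kb. Camta1 held 35, Nav2 32, Rap1gap2 29, Arhgap26 29, the non-coding gene Pvt1 28, the kinase gene Pak4 27 and Thsd4 27. All 27 of Pak4 also lie in another gene, and 20 of the 29 of Arhgap26 had no other host. In both libraries each of the 15 genes had a promoter peak, meaning one at most 1 kb from any of its transcript starts.

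**Figure D1:**
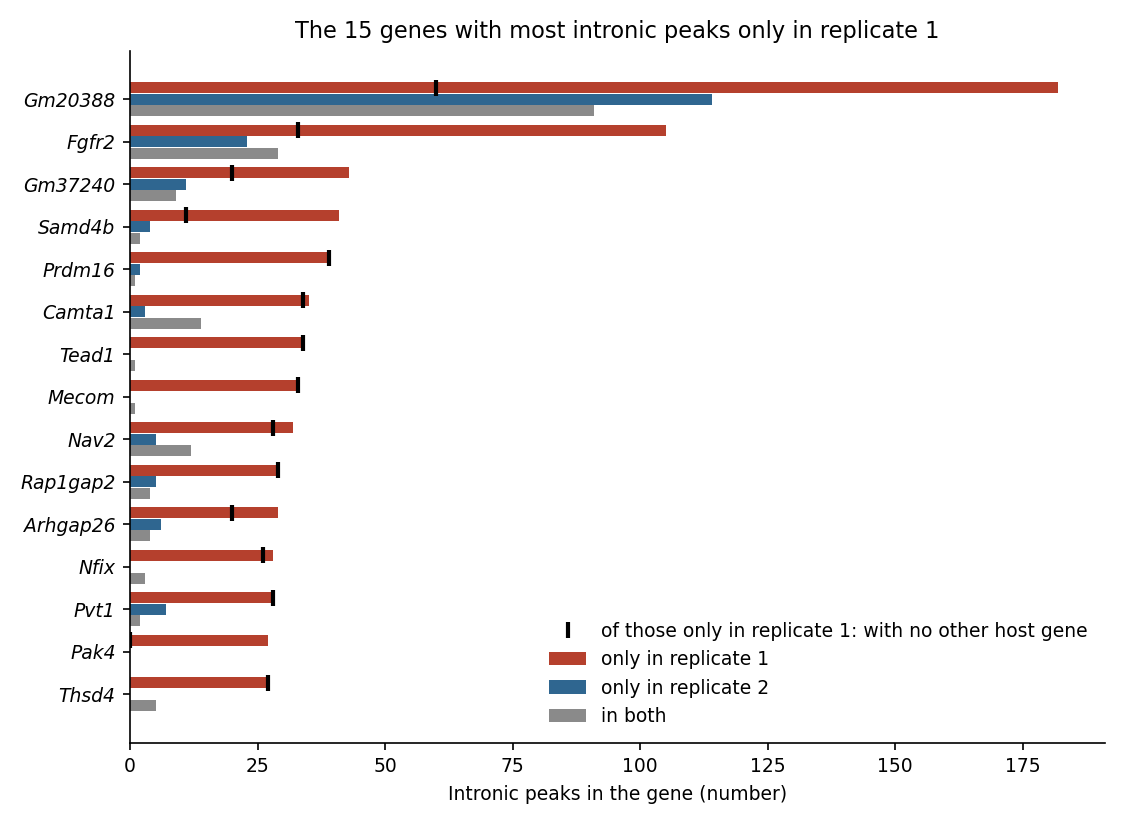
Number of intronic peaks (horizontal axis) in each of the 15 genes with most members, for members (red), peaks only in replicate 2 (blue) and peaks in both libraries (grey). Black ticks give the members with no other host gene, 60 of 182 in Gm20388 but 39 of 39 in Prdm16.

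The ranking by density looked different. Among protein-coding genes with at least 5 members, Klk1b5, a kallikrein family gene, led with 168 members per 100 kb of intron, on 5 members. Pnliprp1, a relative of pancreatic lipase, followed with 151, then Cckar, the cholecystokinin receptor of acinar cells, with 144, and Cela2a, a pancreatic elastase, with 139. Slc41a1, a magnesium transporter gene, had 123, Cela3b 117, the kinase gene Akt1 108, Cdc42ep1 104, Ccdc167 102 and Pnlip 101. None of these 10 genes held a peak only in replicate 2, and Slc41a1 and Cdc42ep1 alone among them held peaks in both, 1 and 2. Of all protein-coding genes just 16.0% held a peak only in replicate 2, at 0.852 per 100 kb of intron. In 10 genes with this little intron the absence therefore says little. Promoter peaks were present in replicate 1 for all 10 and in replicate 2 for Slc41a1, Akt1 and Ccdc167.

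In several enzyme genes the members together covered a large part of the intron. This measure was added after the counts had been seen. Over 13896 protein-coding genes with at least 5 kb of eligible intron, members covered 0.383% of it, and 77 genes passed 10%. Among these 77 were 9 of the 15 acinar enzyme genes of that size. Cela2a had 45.4% of its intron in members, Slc41a1 42.7%, Pnliprp1 40.3%, Cela3b 35.9%, Akt1 35.1%, Pnlip 30.9% and Ctrc 28.3%. Nkx2-2, a homeobox gene of islet cells, had 32.4%. It was the highest gene that also held a peak only in replicate 2, 1 against 8 members. Of these 8 members, 2 had no other host gene.

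Genes of digestive enzymes and their companions, the products of acinar cells, held members far more often than genes at large. At least 1 member lay in 19 of 28 such genes with eligible intron, or 67.9%, against 27.6% of all protein-coding genes. At least 3 lay in 12 of the 28, against 9.91% of all. The median was 2 per gene against 0 over all protein-coding genes. Counted per gene the 28 held 124 members, or 55.4 per 100 kb. These were 115 different peaks, since the 9 of Cela2a also lie in Ctrc. Merging those that overlap left 96 sites, against 17353 from 17778 over all members. Overlapping members thus weigh more in this list. Of the 28, Zg16 alone (3.57%) held a peak only in replicate 2, against 16.0% of all protein-coding genes, and none held a peak in both.

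Within this list the lipase and elastase genes led. Pnlip held 25 members, Ctrc (chymotrypsin C) 20, Pnliprp1 and Pnliprp2 12 each, Cela2a 9, and Cpb1 (a carboxypeptidase) and Cela3b 7 each. Among the genes without a member were Clps, Amy2a5, Prss1, Prss2 and Try5. With 0.209 kb of eligible intron in Clps, against 7.23 kb in Amy2a5, its lack of members says little. The promoter counts given above show peaks at the starts of 26 of 29 of these genes in replicate 1.

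Pnlip (chr19:58652498-58681788) shows the pattern in single peaks. Its 25 members had signals from 0.470 to 3.88 with a median of 1.46. At least 1 footprint lay in 16 of them. The counts per member add up to 45, in which a footprint shared by overlapping members counts more than once. In replicate 2 none of the 25 held an interval with an FDR under 0.05. The promoter peaks of Pnlip in replicate 1 lay between bases 17382 and 18123 of the gene model, with members on both sides. The member printed above ends 3125 bp before a transcript start there, in the intron of a longer transcript. It and the other members before these peaks thus lie upstream of that start. Cela1, which encodes a pancreatic elastase, had 4 members with signals of 4.63, 4.88, 2.75 and 4.15, 2 of which overlap each other. All 4 held a footprint and none an interval of replicate 2, although the promoter of Cela1 had a peak in both libraries.

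Members in enzyme genes differed in form from members at large. Their median width was 300 bp against 200, and their median signal 1.58 against 0.909. All values here count each overlapping member, and the 115 members merged into 96 sites. A footprint lay in 76.5% of the 115 (68.0 to 83.3) against 80.4% of all, but footprints covered 6.81% of their bases against 12.0%. A CAGCTG E-box lay in the central 200 bp of 12.2% (7.39 to 19.4) against 23.3% of all, and the E-box and RBPJ pair described below in 2 of 115, or 1.74% (0.478 to 6.12), against 7.58%.

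Transcription factor genes of pancreas held members in 15 of 17 cases, or 88.2%, 9 of them with at least 3. Over all protein-coding genes 27.6% held a member and 9.91% at least 3. The members in the 17 listed genes numbered 92, or 8.45 per 100 kb. None of the genes held a peak only in replicate 2, against 16.0% of all protein-coding genes. That absence was not particular to this list. The liver, intestine, stomach, thymic epithelium, adipose tissue, and fibroblast and mural cell lists held no such peak either. Mecom led with 33, followed by the nuclear receptor gene Nr5a2 with 13 and Gata4 with 10. Rbpjl, whose product is the acinar partner of PTF1A, held 3, and Xbp1, the unfolded protein response factor, held 2. Promoter peaks lay at all 20 of the listed genes in replicate 1 and at 7 in replicate 2.

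Genes for acinar stimulation and transport held a member in 11 of 16 cases, or 68.8% (8 with at least 3). Over all protein-coding genes 27.6% held a member and 9.91% at least 3. Among the 11 were Slc7a8 with 11 members, Chrm3, the muscarinic receptor gene, with 10, Itpr2 and Slc4a4 with 9 each, and Cckar with 8. Chrm3, Itpr2 and Slc4a4 had 2.20, 2.50 and 2.66 members per 100 kb. Peaks only in replicate 2 lay in 4 of these 16 genes, or 25%. In 11 of 21 secretory pathway genes, or 52.4%, there was a member, and in 6, or 28.6%, a peak only in replicate 2. Sel1l, of the degradation machinery of the endoplasmic reticulum, held 15 at 50.2 per 100 kb, Rab27b 10, and the stress sensor gene Ern1 6. Of 15 duct genes 8, or 53.3%, held a member. Among these, Sox9 and Onecut1 are also in the pancreas transcription factor list and Slc4a4 in the transport list. Islet genes, at 6 of 22 or 27.3%, sat at the share of all genes. Nkx2-2 held 8 of their 17 members, of which 2 had no other host gene.

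In T cell genes the peaks only in replicate 2 outnumbered members. Of 22 T cell receptor and coreceptor genes 2 (9.09%, against 27.6% of all protein-coding genes) held a member, Fyn with 23 and Cd247 with 1. In 13 of the 22 (59.1%, against 16.0%) lay a total of 53 peaks only in replicate 2. Cd8b1 held 15 of those and no member, Cd8a 4 and Cd4 3. Fyn, a kinase gene expressed well beyond T cells, had 6 such peaks beside its 23 members. All 17 T lineage transcription factor genes held peaks only in replicate 2, 170 in all, and 10 held a member, 25 in all. That is 58.8% of these genes, above the share of all genes, at 1.81 members per 100 kb, near the 1.84 over all genes. Tcf7 had 41 such peaks and no member, Bcl11b 19 and 1, Ets1 18 and 0, and Runx1 19 and 4. Notch1 was the exception in number, with 7 members and 3 peaks only in replicate 2.

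**Figure D2:**
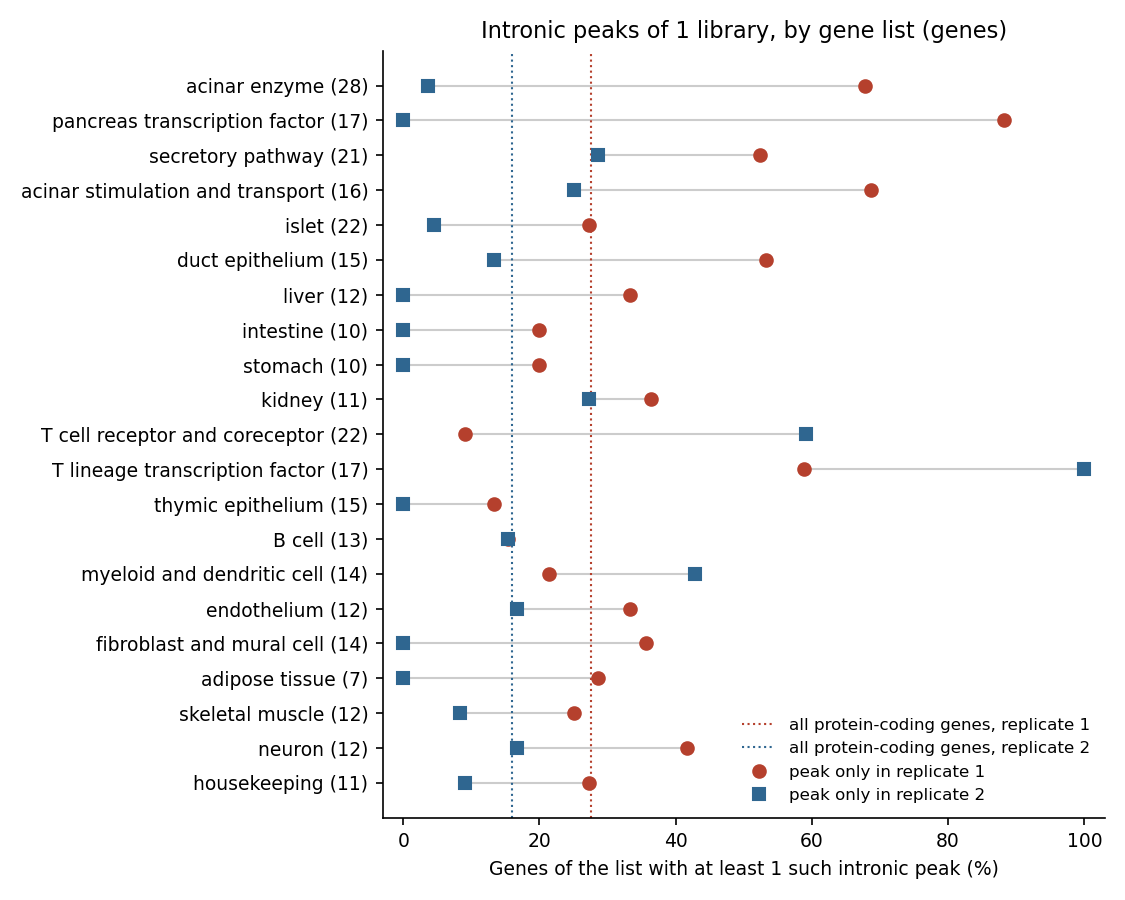
Share of the genes of each list that hold at least 1 member (red circles) or at least 1 peak only in replicate 2 (blue squares), with the number of genes in brackets and dotted lines at 27.6% and 16.0% of all protein-coding genes. The acinar enzyme, pancreas transcription factor and transport lists lie right of the red line. So do the T lineage transcription factor list at 58.8%, duct at 53.3%, secretory pathway at 52.4% and some other lists. The T cell receptor list lies left of it.

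Lists for other tissues and cell types mostly lay near the share of all genes. A member was held by 4 of 12 liver genes, 2 of 10 intestine genes (Lgr5 with 7), 2 of 10 stomach genes, 4 of 11 kidney genes (Cubn with 6) and 3 of 12 muscle genes. Counts were 5 of 14 for fibroblasts and mural cells, 4 of 12 for endothelium (Tek with 8), 2 of 7 for adipose tissue, 2 of 13 for B cells, 3 of 14 for myeloid and dendritic cells and 2 of 15 for thymic epithelium. Neuron genes stood somewhat higher at 5 of 12, with 8 in Syt1 and 7 each in Map2 and Rbfox3, genes with long introns, at 1.88 members per 100 kb for the list. Housekeeping genes held one in 3 of 11 cases. In lists this short 1 gene moves the share by many percent.

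**Figure D3:**
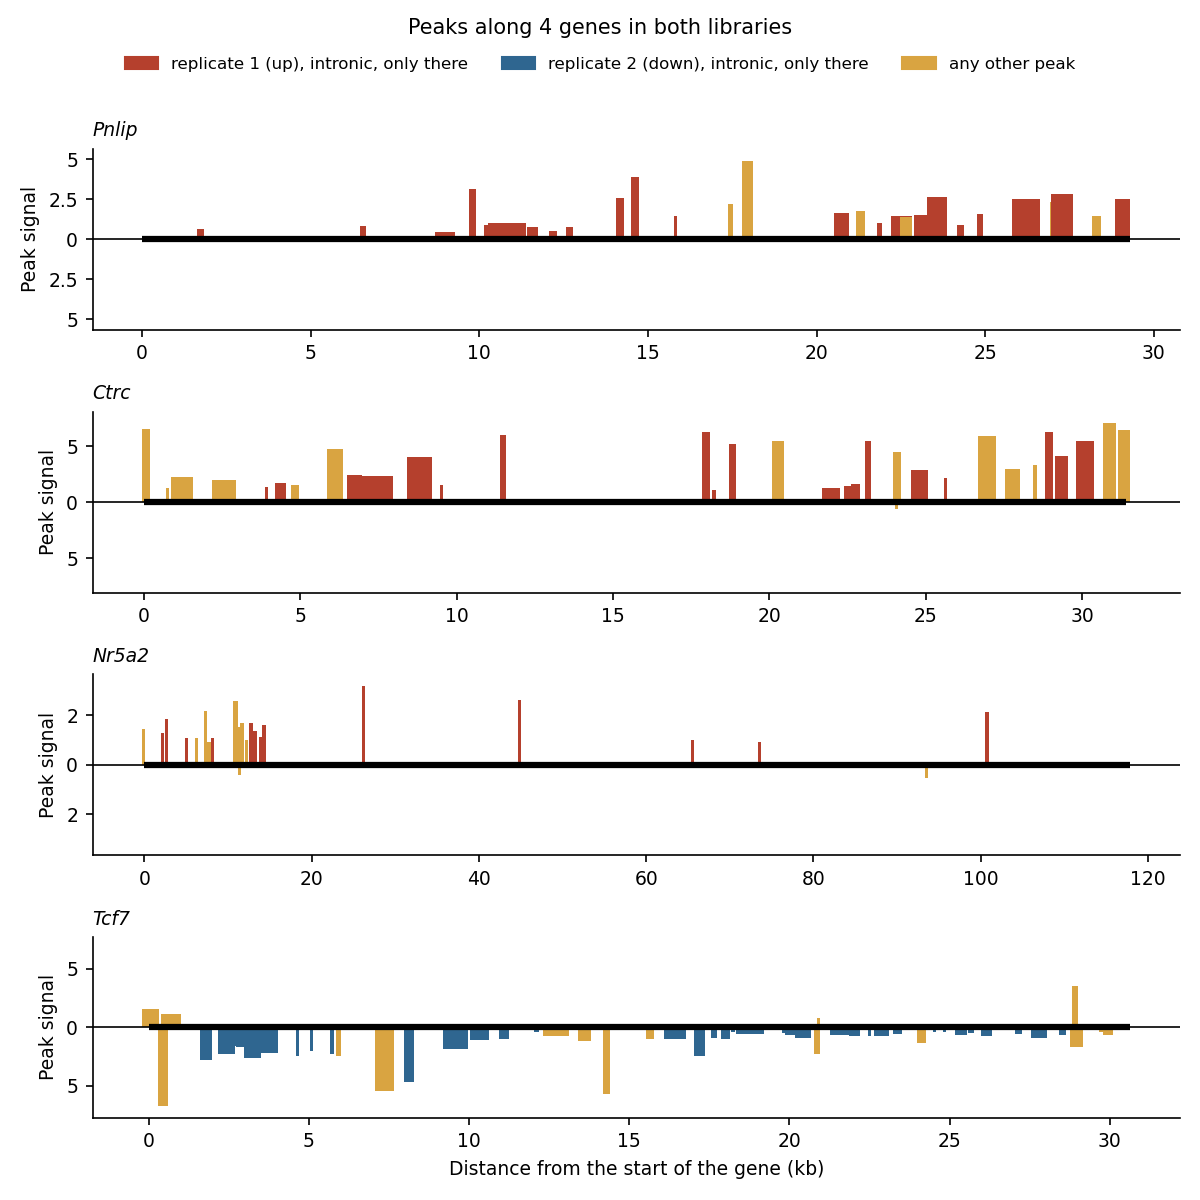
Peaks along Pnlip, Ctrc, Nr5a2 and Tcf7 by distance from the start of the gene in kb, with replicate 1 signals drawn upwards and replicate 2 signals downwards. Red and blue bars are intronic peaks of 1 library only and tan bars are all other peaks; Pnlip holds 25 red bars and Tcf7 holds 41 blue and none in red.

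Most genes rich in members had an open promoter in both libraries. A promoter peak only in replicate 1 was found at 4.07% of the 19252 protein-coding genes. Here only means in its shorter list and in neither list of replicate 2. Of the 280 of these genes with at least 10 members, 5.71% (3.55 to 9.08) had such a promoter, 85.0% (80.3 to 88.7) had a promoter peak in both libraries and 1.79% in neither. Over all genes the last shares were 60.1% and 29.8%. Of the 29 enzyme genes, 24 had a promoter peak in the shorter list of replicate 1 and none in the shorter list of replicate 2. The longer list of replicate 2 was not considered in that count, so it is looser than the 4.07% and 5.71%.

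The sequences under the members held sites of another kind than peaks only in replicate 2. Matches were counted on both strands in the central 200 bp, and as a reference in the intron windows. RUNX (TGTGGTT) matched 4.18% of members (3.90 to 4.49) and 11.4% of peaks only in replicate 2 (10.8 to 12.1), with 4.85% in the windows. ETS (AGGAAGT) matched 5.32% of members (5.00 to 5.66) and 18.1% of peaks only in replicate 2 (17.3 to 18.9), with 4.76% in the windows. In members both shares lay within 1 percentage point of the windows.

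Several matches were more frequent in members. NR5A2 matched 1.11% of members (0.970 to 1.28), 0.317% of peaks only in replicate 2, 0.289% of peaks in both and 0.456% of windows. GATA matched 4.73%, 2.31%, 1.75% and 2.92% in the same order. FOXA (TGTTTAC) matched 5.02%, 2.57%, 2.47% and 3.02%. HNF4 (CAAAGTCCA) matched 0.630%, 0.158%, 0.276% and 0.262%. RBPJ matched 8.58%, 4.24%, 5.89% and 5.35%. In each of these 5 the interval of the members lay above those of the other 3 sets.

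The PTF1 complex binds an E-box next to a TGGGAA box, and this pair was searched as CANCTG, which takes in both E-boxes above, within 25 bp of TGGGAA, which is part of every RBPJ match. It lay in 7.58% of members (7.20 to 7.97), 3.87% of peaks only in replicate 2, 4.34% of peaks in both and 2.44% of windows. The strongest 4445 members held it in 12.0% of cases and the weakest 4445 in 5.33%. The E-boxes alone differed less between members and peaks only in replicate 2. CAGCTG matched 23.3% of members and 22.3% of peaks only in replicate 2, an order that turned among the stronger 50% of peaks (ratio 0.989). It matched 15.7% of peaks in both and 7.55% of windows. Set against the windows, members held CAGCTG 3.09 times as often and the pair 3.10 times. In the order members, only in replicate 2, both and windows, CACCTG matched 26.8%, 29.5%, 24.1% and 11.9%. CATATG matched 4.26%, 3.19%, 3.08% and 6.25%. The windows had a lower GC content, and its part in these differences was not tested.

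The NFI palindrome, added after the strongest members were read, matched 4.03% of members (3.75 to 4.33), 1.19% of peaks only in replicate 2 (0.980 to 1.45), 1.62% of peaks in both (1.36 to 1.93) and 0.311% of windows. It depended on the gap between TGGC and GCCA. With 5 bases between them 717 members matched, while with 3, 4, 6 or 7 bases 176, 168, 191 and 158 did, or 0.990%, 0.945%, 1.07% and 0.889%. The strongest 4445 members held it in 5.53% of cases and the weakest 4445 in 3.69%. Members between these, split by signal from weaker to stronger, held it in 3.13% and 3.78%. Because the palindrome was picked by reading the strongest members, the highest share is not independent of that choice. These 717 members lay in 704 genes, with 9 in Gm20388 and no more than 3 in any other gene, and just 1 of them lay in an acinar enzyme gene.

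CTCF, a factor that binds at the same places in most tissues, marked peaks in both libraries instead. Its core sequence, which can contain a CACCTG E-box, matched 1.58% of members (1.41 to 1.77), 1.44% of peaks only in replicate 2, 23.0% of peaks in both (22.1 to 23.9) and 0.0904% of windows. Among the stronger 50% of peaks the ratio of members to peaks only in replicate 2 turned, from 1.10 to 0.572. Among members it fell with signal, from 2.74% of the weakest 4445 to 0.472% of the strongest. SP/KLF (GGGCGGG), a sequence of GC-rich promoters, matched 2.79% of members, 5.66% of peaks only in replicate 2 and 4.84% of peaks in both. All 3 shares lay above the 0.861% of windows. In the order members, only in replicate 2 and both, AP-1 (TGANTCA) matched 7.61%, 6.28% and 5.66%, against 6.02% of windows. TEAD (CATTCCA) matched 3.78%, 1.84% and 2.85% against 3.24% of windows. TCF/LEF (CTTTGAA) matched 4.18%, 4.93% and 4.08% against 5.21% of windows.

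**Figure D4:**
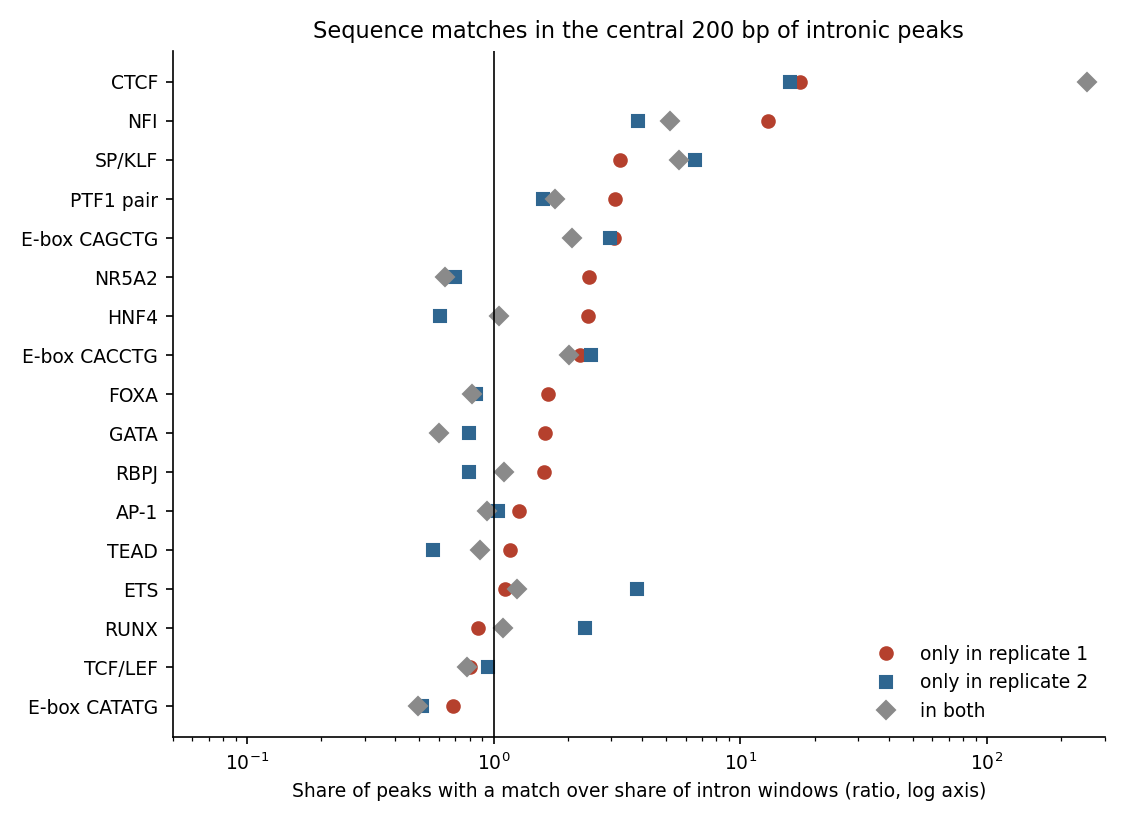
Share of peaks with a match in their central 200 bp divided by the share of intron windows with one (log axis), for members (red), peaks only in replicate 2 (blue) and peaks in both (grey). Members lie well to the right of the other sets for NFI, at 4.03% against 0.311% of windows, and peaks only in replicate 2 do for ETS and RUNX.

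Footprints, which the authors called from the cuts of the same library, lay in 80.4% of members (79.8 to 81.0), in 86.2% of peaks only in replicate 2 and in 95.8% of peaks in both. The share followed signal: 56.4% of the weakest 4445 members held one and 97.8% of the strongest, with a median of 1 and 3 footprints each.

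Matches differed in how often their midpoint lay in a footprint, set against 12.0% of the bases of the members that did. For NFI it was 557 of 737 matches, 75.6% (72.3 to 78.5), and for CTCF 208 of 280, 74.3% (68.9 to 79.1). NR5A2 had 93 of 212, 43.9% (37.4 to 50.6), CAGCTG 39.3% (38.0 to 40.7), the PTF1 pair 33.6% (31.4 to 35.9) and RBPJ 22.7%. In peaks only in replicate 2 the same CAGCTG sequence lay in footprints in 18.6% of cases (17.0 to 20.2), with 13.3% of bases in footprints. RUNX gave 10.7% in members and 24.0% in peaks only in replicate 2. FOXA matches lay in footprints least often, 33 of 1018 or 3.24%, below the share of bases, and AP-1 stood at 7.94%. Because a match is one short sequence among many that a protein may bind, these shares describe letters and not occupancy. The matches here are not the same count as the peaks with a match in the central 200 bp. In peaks only in replicate 2 there were 22 NR5A2 matches here, against 26 peaks with a match in that window.

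**Figure D5:**
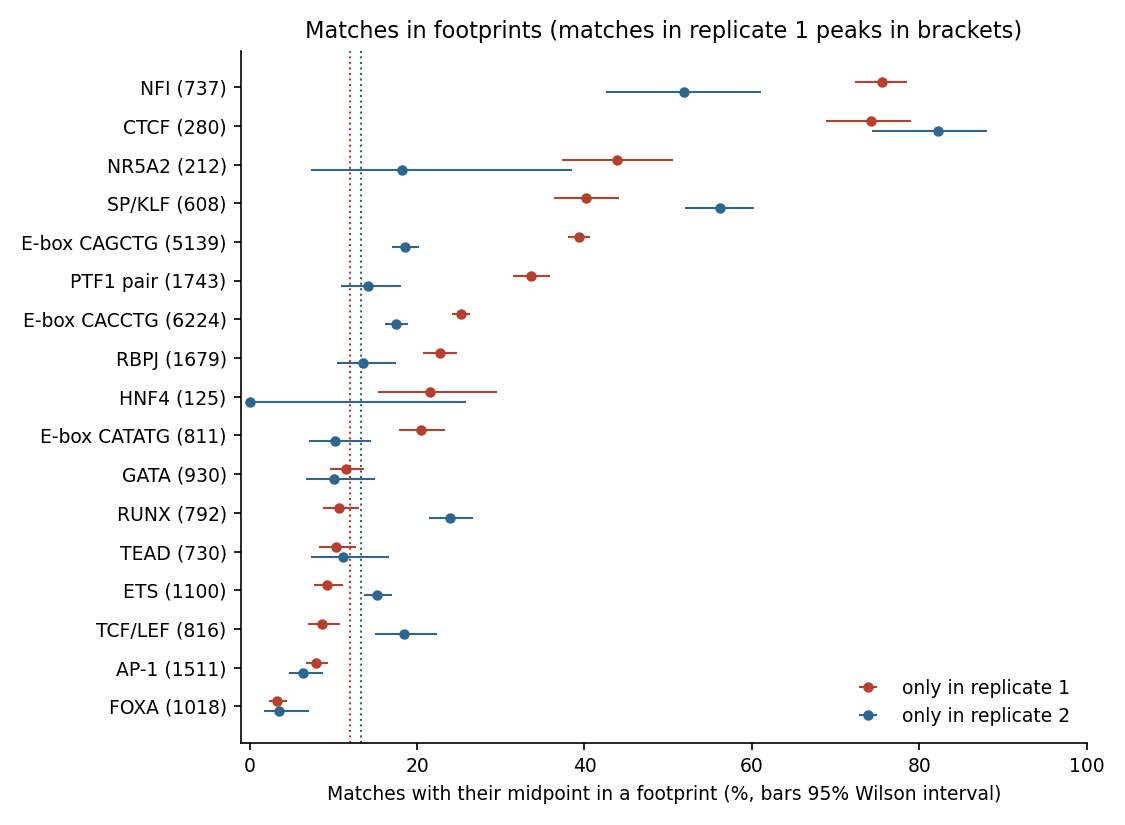
Share of matches whose midpoint lies in a footprint of the same library, with 95% Wilson intervals, for members (red) and peaks only in replicate 2 (blue), the number of matches in members in brackets. Dotted lines give the share of peak bases in footprints, 12.0% and 13.3%; NFI and CTCF lie far right of them.

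Cutting of replicate 2 at the members was kept low by the rule, so its values are a description. An interval with an FDR under 0.05 in its table lay in 407 members, 2.29% (2.08 to 2.52), against 1.37% of intron windows (1.33 to 1.42). The windows are 200 bp wide throughout while members vary. They were also not cleared of the peaks of either library, as members were of replicate 2 peaks, so the shares are of unlike sets. With the shorter list of replicate 2 alone in the rule the share of members was 10.4%. At an FDR under 0.01 the shares were 0.984% (0.849 to 1.14) and 1.06%. Seen the other way, 4.14% of peaks only in replicate 2 (3.73 to 4.59) held such an interval of replicate 1, against 2.36% of windows. The Prdm16 member printed above was one of the 407, with a lowest FDR of 0.0294 in replicate 2.

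At the edges of the rule the choice was a matter of bases. The nearest member lay 1001 bp from a transcript start, with a signal of 0.776, and the nearest excluded unshared peak 1000 bp, with a signal of 4.80. There were 315 members within 1100 bp of a start, and 368 unshared intronic peaks lay in the last 100 bp before the limit. An overlap of 1 bp with a replicate 2 peak ended membership, and 21 intronic peaks had an overlap of at most 10 bp.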

How the data were processed

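DNase-seq data from 2 thymus libraries of 1 group were used as deposited. Per the labels the build is mm10, and per the deposited notes every file derives from the filtered alignment of its library. The deposited peak lists, 2 per library, give a signal per peak, on a scale that neither labels nor notes state. They held 85367 and 126824 peaks for replicate 1 and 60644 and 88164 for replicate 2. The deposited FDR tables, a p-value type of unit, list intervals under 0.05. The score of the deposited footprints was constant and was not used. Aligner, callers and depth were found in none of the sources.

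Peaks were placed against GENCODE vM21 (132629 transcript starts) and GRCm38.p6 with Python 3.11.15, numpy 2.4.6 and pandas 2.3.3, in code tested on simulated data. A peak counted in every gene around its midpoint. Intron windows were every 20th stretch of 200 bp of eligible intron. Motifs were 17 short sequences, and NFI was added after seeing the data, as were intron cover and the merging of overlapping members. No test was run, since 2 libraries of 1 group allow none. Shares have Wilson 95% intervals. Of 334 list entries in 21 gene lists 333 matched a gene.

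The members, the gene lists and the motifs were chosen with earlier results of these data known. Named are the 15 genes with most members, the 10 densest protein-coding genes with at least 5, the 10 strongest members, up to 4 genes per list by members, Pnlip and Cela1, and sequences of at most 300 bp for Pnlip, Cela1 and the first 8 genes. Cela1 has no member that short, none from chromosome 18 is printed, and 6 of the remaining sequences are. Some genes and motifs that these rules name are not reported here. Other genes and members were named after their values were seen.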

Additional observations from a re-analysis of the deposited data

How the results depend on the processing

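The read depth of the libraries is unknown, so how many members deeper data of replicate 2 would remove could not be measured. Leaving out either library was not possible, because membership needs both. No paired analysis was possible because there is 1 group of 2 libraries. Of 451 values recomputed under the alternatives 389 stayed within 1.5 times (counts and ratios) or within the interval (shares), 60 moved further and 2 turned.

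The number of members was 5705 and of host genes 2919 among the stronger 50% of peaks, which drops most members by construction. It was 19967 at 500 bp and 14600 at 2500 bp from transcript starts, 19387 against the shorter list of replicate 2 alone, and 17353 after merging. The share of members with a footprint was 77.3% at 500 bp, 81.9% at 2500 bp, 81.0% against the shorter list alone, 96.4% in the stronger 50%, 82.5% for members also in the longer list and 78.8% for whole footprints. The share with an interval of replicate 2 was 3.92% at 500 bp, 1.92% at 2500 bp, 10.4% against the shorter list alone, 6.30% when an overlap of 50% of the peak was needed and 0.984% at an FDR under 0.01. T cell receptor genes with a member numbered 4 against the shorter list alone and 1 in the stronger 50%, and T lineage factor genes 6 in the stronger 50%. The acinar enzyme and pancreas transcription factor counts stayed within 1.5 times in all alternatives. The ratios of members to peaks only in replicate 2 that turned in the stronger 50% were 0.989 for CAGCTG and 0.572 for CTCF; the cause was not tested.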

Other observations

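Members with matches to 2 sequences at once were counted for 6 pairs, and in each the product of the single shares lay within the interval of the pair. NR5A2 and the PTF1 pair lay together in 11 members, 0.0619% (0.0346 to 0.111), where the product of their shares is 0.0844%. GATA and the PTF1 pair lay together in 49 members, 0.276% (0.209 to 0.364), against a product of 0.358%. NR5A2 and FOXA did so in 16 members, 0.0900% (0.0554 to 0.146), against 0.0559%.

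Slc41a1, Akt1, Ccdc167 and Ahcy, none of them on a list, had 42.7%, 35.1%, 28.1% and 27.2% of their intron in members and a promoter peak in both libraries. Tent5c had 26.2%, on 23 members and 30.7 kb of intron, and Thra, the gene of a thyroid hormone receptor, had 24.0%. These genes were named after their values were seen.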
